A study of Mus musculus with 16 samples.

Results

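Ubiquitin ligase and deubiquitinase genes were taken as every autosomal gene whose symbol joins a stem (Usp, Otud, Uchl, Ube2, Trim, Rnf, Fbxo, Fbxl, Fbxw, Klhl, Asb, Cul or March) to a number. In all, 66 of the 3925 genes in the deposited file met this rule, among 3789 autosomal genes. Symbols could be given to 3493 of the 3925, and a gene left without one could not be found. Here and below, a gene is called measured, or in the file, only where a symbol was given. They were 14 deubiquitinases (11 Usp, 2 Otud and 1 Uchl gene), 3 ubiquitin-conjugating enzymes of the Ube2 family, 17 RING ligases (14 Rnf and 3 Marchf genes), 10 Trim ligases, and 22 substrate adaptors of cullin ligases (5 Fbxo, 5 Fbxl, 3 Fbxw, 7 Klhl and 2 Asb genes). These roles follow from the symbol stem alone. No Cul gene was measured. Left out were the X-linked Usp11, Klhl13 and Rnf128, the opposite-strand transcript Fbxl12os, and Ube2c and Ube2w, whose stems are followed by a letter only. None of 10 genes that fit these stems and are known for ubiquitin on histone H2A, such as Rnf2 and Usp16, was among the genes measured.

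The series compared endosteal mesenchymal stromal cells, the stromal cells that line the inner bone surface, between control C57BL/6J mice (genotype Bap1fl/fl, called WT) and C57BL/6J mice of genotype Prx1-cre;Bap1fl/fl (called cKO). All mice therefore carried the floxed alleles, and Prx1-cre, which is active in limb mesenchyme, separates the groups. Chromatin immunoprecipitation sequencing was done for H2AK119ub1, H3K27me3, H3K4me3 and H3K27ac, with 2 libraries in each of 8 groups. Whether both libraries of a group come from different mice is not in the labels, so the spread behind each p-value may be technical. For H3K4me3 and H3K27ac the title and the antibody field of a library disagree, the antibodies being exchanged between them, and libraries are named here by title. Loss of Bap1 itself was not analysed here, and the genotypes rest on the labels alone.

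Ubiquitin is passed from an activating enzyme to a conjugating enzyme and then to a substrate chosen by a ligase. RING, membrane-bound March and most Trim proteins act as single-chain ligases, whereas F-box, Klhl and Asb proteins carry substrates to a cullin scaffold. Deubiquitinases remove the modification, and BAP1 itself is the deubiquitinase that removes ubiquitin from H2AK119. H2AK119ub1 and H3K27me3 are placed by Polycomb complexes, and H3K4me3 and H3K27ac mark active promoters.

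The promoters on which the results below turn are shown as the 250 bases before the gene start (RefSeq, GRCm38.p6), read along the gene, with CpG dinucleotides in capitals. They are those of the members of lowest p in each direction of H3K4me3 (Trim25 and Marchf9) and H3K27me3 (Klhl22 and Rnf130). Those of Fbxo10 and Fbxl16, which were called in all 4 marks, are added. Neither H2AK119ub1 call held with promoters of 1 kb to each side, relative to the region, or in most or all fits with 1 library left out. Trim25 (ENSMUSG00000000275) lies at chr11:88999153-88999402 on the plus strand, Klhl22 (ENSMUSG00000022750) at chr16:17759391-17759640 on the plus strand, and Marchf9 (ENSMUSG00000040502) at chr10:127060185-127060434 on the minus strand. Rnf130 (ENSMUSG00000020376) lies at chr11:50025081-50025330 on the plus strand, Fbxo10 (ENSMUSG00000048232) at chr4:45084605-45084854 on the minus strand, and Fbxl16 (ENSMUSG00000025738) at chr17:25808211-25808460 on the plus strand, where the RefSeq start is 623 bp from the centre of the measured window. The Rnf130 stretch held 39 CpG, that of Marchf9 29, Fbxo10 23, Klhl22 14, Trim25 12 and Fbxl16 5.
Trim25: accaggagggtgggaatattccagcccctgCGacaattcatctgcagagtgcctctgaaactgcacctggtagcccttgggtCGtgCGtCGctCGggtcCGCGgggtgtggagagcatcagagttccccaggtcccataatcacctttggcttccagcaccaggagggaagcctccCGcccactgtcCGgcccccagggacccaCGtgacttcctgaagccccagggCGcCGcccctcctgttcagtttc
Klhl22: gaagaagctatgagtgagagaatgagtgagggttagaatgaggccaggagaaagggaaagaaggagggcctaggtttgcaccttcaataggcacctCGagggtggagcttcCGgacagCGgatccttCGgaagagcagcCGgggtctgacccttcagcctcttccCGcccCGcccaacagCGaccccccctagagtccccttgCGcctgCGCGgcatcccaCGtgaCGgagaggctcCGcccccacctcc
Marchf9: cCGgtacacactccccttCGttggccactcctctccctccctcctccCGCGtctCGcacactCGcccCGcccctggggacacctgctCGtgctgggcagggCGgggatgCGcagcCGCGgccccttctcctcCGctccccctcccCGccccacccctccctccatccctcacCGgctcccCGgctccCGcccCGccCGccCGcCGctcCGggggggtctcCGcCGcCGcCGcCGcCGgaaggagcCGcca
Rnf130: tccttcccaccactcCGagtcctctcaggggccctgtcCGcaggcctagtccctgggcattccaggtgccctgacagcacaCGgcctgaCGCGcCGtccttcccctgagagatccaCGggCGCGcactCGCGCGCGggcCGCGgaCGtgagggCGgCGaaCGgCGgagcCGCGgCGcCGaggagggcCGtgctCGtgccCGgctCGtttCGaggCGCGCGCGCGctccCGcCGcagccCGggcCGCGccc
Fbxo10: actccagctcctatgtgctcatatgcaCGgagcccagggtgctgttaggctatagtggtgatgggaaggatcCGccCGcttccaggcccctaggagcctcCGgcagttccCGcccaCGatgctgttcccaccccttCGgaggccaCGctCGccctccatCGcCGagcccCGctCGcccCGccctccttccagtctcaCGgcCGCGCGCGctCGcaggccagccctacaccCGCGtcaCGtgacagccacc
Fbxl16: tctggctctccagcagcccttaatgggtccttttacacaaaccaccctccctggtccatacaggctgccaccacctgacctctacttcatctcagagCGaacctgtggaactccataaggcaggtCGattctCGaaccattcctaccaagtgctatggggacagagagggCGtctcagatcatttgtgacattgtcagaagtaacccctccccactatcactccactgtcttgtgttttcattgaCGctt

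Promoter signal was measured within 2 kb to each side of the gene start, in CPM (deposited counts per 1000000 of the library's scaled total), and changes are log2 of cKO over WT ± SE. Genes are said to have risen or fallen where edgeR's quasi-likelihood test with Benjamini-Hochberg adjustment over all promoters tested gave an adjusted p of at most 0.05. In bulk chromatin, a change in the share of cells that carry a mark and a change in signal per cell cannot be told apart. Many genes named below were picked in part because their WT and cKO libraries did not overlap in a mark. Non-overlap there followed from the choice and is no further support. Every gene in the file is marked UP (1904) or DOWN (2021). Backgrounds, shares of all autosomal promoters and percentiles therefore refer to that set, not to all genes of the genome. All 66 members passed the filter on low counts in each mark. H3K4me3 rose at 35 members (background 41.1% of autosomal promoters) and fell at 19 (background 31.5%). H3K27ac rose at 30 (background 31.6%) and fell at 14 (background 28.7%). Both active marks rose at 28 members (background 28.7%) and both fell at 13 (background 22.2%). No member had the active marks called in opposite directions (background 0.775%). H3K27me3 rose at 9 (background 12.9%) and fell at 6 (background 13.7%). H2AK119ub1 rose at 18 (background 17.3%) and fell at 6 (background 13.7%). As shares of the 66 members these counts are 53% and 28.8% for H3K4me3, 45.5% and 21.2% for H3K27ac, 13.6% and 9.09% for H3K27me3, and 27.3% and 9.09% for H2AK119ub1.

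The median log2 change over the members was 0.25 for H3K4me3 (0.05 over all autosomal promoters), 0.36 for H3K27ac (0.02), 0.14 for H3K27me3 (0.05) and 0.10 for H2AK119ub1 (0.04). Without the 12 members on chromosome 4 the medians were 0.05, 0.00, 0.03 and -0.04 in the same order. Across the 66 members, which share libraries, the changes in H3K4me3 and H3K27ac had a Pearson r of 0.88 (0.82 over 3761 autosomal promoters). H3K27me3 and H3K4me3 had an r of -0.20 (-0.25 over 3749 promoters), and H2AK119ub1 and H3K27me3 an r of 0.41 (0.54 over 3747 promoters). Over the 54 members off chromosome 4 the r was 0.88, -0.35 and 0.28 in the same order. Of the 66 members, 59 changed in at least 1 mark (89.4%, background 88.0% of 3744 autosomal promoters tested in all marks) and 4 changed in all 4 (6.06%, background 6.54%), which were Fbxo10, Fbxl16, Fbxo32 and Rnf130. Both shares are near the background.

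**Figure D1:**
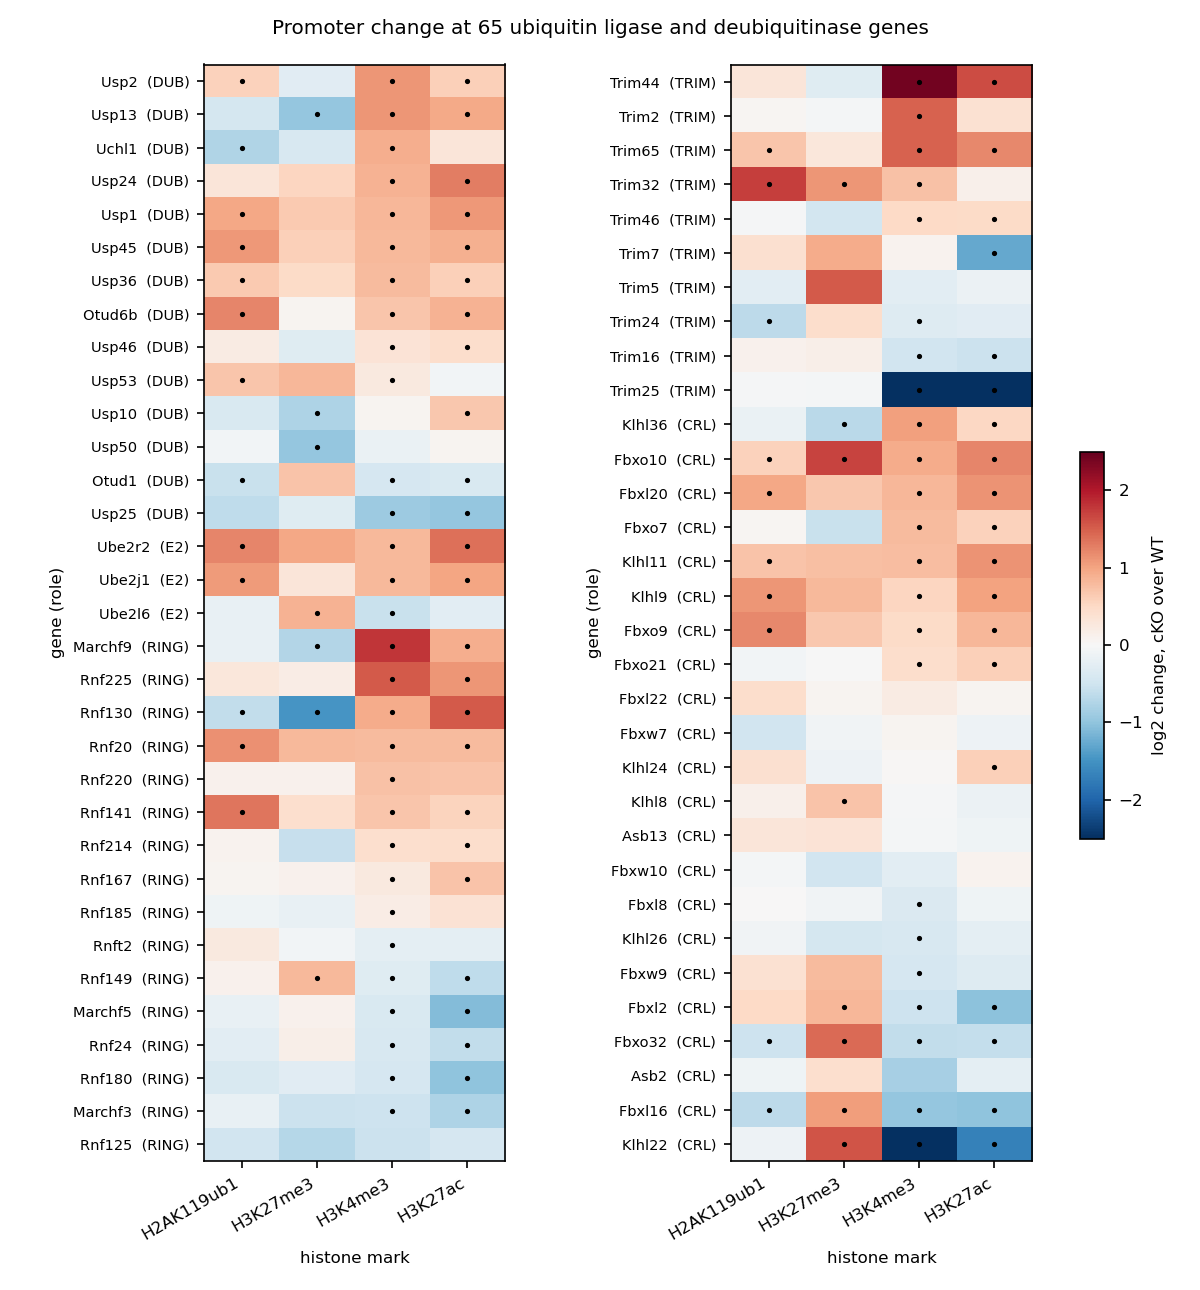
Colours give the log2 change of cKO over WT in promoter CPM for 65 of the 66 members (rows, ordered by role and by H3K4me3 change) in 4 histone marks (columns), each from 2 libraries per genotype, and a dot marks an adjusted p of at most 0.05 in edgeR's test. DUB stands for deubiquitinase, E2 for conjugating enzyme, RING and TRIM for those ligases and CRL for adaptors of cullin-RING ligases, values beyond the ends of the scale take its end colour, and Trim25, Klhl22, Trim44 and Marchf9 hold the strongest H3K4me3 colours.

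Over the windows measured, the 16 libraries held 1283020 to 10101047 bin counts, with the H3K27me3 libraries the shallowest. The median count at a member's promoter was 89.5 to 157 in the H3K27me3 libraries, 211.5 to 315.5 in those of H2AK119ub1, 426.5 to 591.5 in those of H3K27ac and 1414 to 2526 in those of H3K4me3, and a read enters about 3 bins. Of 14 stromal markers 7 were measured, with WT H3K4me3 from the 11th (Thy1) to the 97.8th percentile (Cxcl12) of autosomal promoters. Of 10 blood cell markers 1 was measured, Lyz2, at the 4.67th percentile, and none of the markers listed as endothelial was measured. Eng, listed as stromal, is also expressed by endothelial cells. H3K4me3 at the stromal markers Pdgfrb, Col1a2 and Eng was lower in cKO (543 to 114, 412 to 36.5 and 174 to 12.6 CPM, means of 2 libraries), and the part of a change in cell makeup in the members' results was not tested.

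Among the 14 deubiquitinases, active marks rose more often than they fell. H3K4me3 rose at 10 of 14 (background 41.1% of all autosomal promoters and 74.6% of those marked UP in the deposited file, as 11 of the 14 are), namely Otud6b, Uchl1, Usp1, Usp13, Usp2, Usp24, Usp36, Usp45, Usp46 and Usp53. It fell at Otud1 and Usp25 (background 31.5%). H3K27ac rose at 9 (background 31.6%, and 61.4% of those marked UP), and fell at Otud1 and Usp25 (background 28.7%). The 9 were Otud6b, Usp1, Usp10, Usp13, Usp2, Usp24, Usp36, Usp45 and Usp46. The 3 marked DOWN (Otud1, Usp10 and Usp25) had no H3K4me3 rise, and Usp10 alone of them rose in H3K27ac. Shares of the 14 and of promoters marked UP thus rest on unlike sets. A difference from either background was not tested, and neither share is read as a trait of deubiquitinases. The median log2 change of the 14 was 0.74 in H3K4me3 and 0.60 in H3K27ac. Relative to the H2AK119ub1 change of their region, described further on, H3K4me3 was higher at 5 of the 14 (background 31.9%). These were Uchl1, Usp10, Usp13, Usp2 and Usp46. Here and below, a change relative to the region is never taken against the same mark at the neighbours. The sources used here state no contrast for the mark UP or DOWN.

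Usp13, a deubiquitinase linked to autophagy, held 112 and 112.2 CPM of H3K4me3 in the WT libraries and 255.8 and 224.7 CPM in the cKO libraries. The genotypes did not overlap, and the change was 1.10 ± 0.12 (2.14-fold, edgeR adjusted p = 1.0e-19). H3K27ac at Usp13 rose from 69.3 and 86.7 CPM to 143 and 157.2 CPM, by 0.94 ± 0.20 (adjusted p = 1.3e-04).

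Usp24 had 327 and 319.4 CPM of H3K4me3 in WT and 614.8 and 572.9 CPM in cKO, again without overlap (0.88 ± 0.08, adjusted p = 2.4e-28). Its H3K27ac rose from 242.9 and 217.6 CPM to 566.3 and 548.6 CPM, by 1.28 ± 0.14 (adjusted p = 3.0e-09). Relative to the H2AK119ub1 change of the 20 nearest genes, which was 0.80, the H3K4me3 change of Usp24 was 0.08 (adjusted p = 0.378) and that of H3K27ac was 0.48 (adjusted p = 0.00517). Usp1, which removes ubiquitin from the DNA clamp PCNA, showed a rise of like size in H3K4me3 (0.84 ± 0.08, adjusted p = 3.4e-27) that was 0.06 relative to its region (adjusted p = 0.503).

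Usp25 went the other way. Its H3K4me3 was 241.2 and 248.5 CPM in WT and 127.6 and 134.1 CPM in cKO (-0.90 ± 0.11, adjusted p = 6.5e-15), and its H3K27ac was 119.6 and 154.3 CPM in WT and 52 and 87.8 CPM in cKO (-0.97 ± 0.23, adjusted p = 4.4e-04). The 2 genotypes stood apart in both marks. Usp25 also had the lowest regional H2AK119ub1 change of all members, -0.81, and relative to it the H3K4me3 change was -0.09 (adjusted p = 0.512) and the H3K27ac change -0.16 (adjusted p = 0.592). Without WT replicate 2 the H3K27ac change of Usp25 was -0.74 (adjusted p = 0.0858).

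Uchl1, a carboxy-terminal hydrolase abundant in neurons, had low H3K4me3 in WT (46.4 and 36.5 CPM) that rose to 83.3 and 72 CPM (0.91 ± 0.20, adjusted p = 1.2e-05), with no overlap. It was 1 of 5 members in the top 10% of WT H3K27me3. Otud1, an OTU-family deubiquitinase, had 418 and 490.4 CPM of H3K4me3 in WT and 350.1 and 328.4 CPM in cKO (-0.42 ± 0.08, adjusted p = 5.6e-07). Its H3K27ac fell from 238.8 and 292.5 CPM to 186.9 and 220.4 CPM, by 0.39 ± 0.16 (SE) on the log2 scale (adjusted p = 0.0404). That call ended without WT replicate 1 (adjusted p = 0.0786), WT replicate 2 (0.462) or cKO replicate 1 (0.211). The H3K27ac calls of Usp2 and Usp46 also rested on single libraries, with adjusted p of 0.126 for Usp2 without WT replicate 2, 0.0886 for Usp2 without cKO replicate 2, and 0.241 for Usp46 without WT replicate 1. The H3K4me3 call of Usp53 was lost without WT replicate 2 (0.15, adjusted p = 0.137).

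The 3 conjugating enzymes split. Ube2r2, which works with cullin ligases, held 285.3 and 299.8 CPM of H3K27ac in WT and 813.1 and 712.1 CPM in cKO, a rise of 1.38 ± 0.14 (2.61-fold, adjusted p = 2.2e-10). H3K4me3 at Ube2r2 rose from 292.2 and 343.6 CPM to 593.1 and 530.7 CPM, by 0.82 ± 0.08 (adjusted p = 3.2e-24). Ube2j1, a conjugating enzyme of the endoplasmic reticulum membrane, rose in H3K4me3 by 0.81 ± 0.08 (adjusted p = 4.5e-23) and in H3K27ac by 0.98 ± 0.15 (adjusted p = 1.6e-06). Both genes lie on chromosome 4, and relative to their regions the H3K4me3 changes were -0.03 for Ube2r2 (adjusted p = 0.789) and -0.01 for Ube2j1 (adjusted p = 0.925). The H3K27ac change stayed at 0.54 for Ube2r2 (adjusted p = 0.00126) and was 0.16 for Ube2j1 (adjusted p = 0.416). The measured window of Ube2j1 overlaps that of another gene, so reads of the 2 cannot be told apart.

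Ube2l6, the conjugating enzyme of the ubiquitin-like protein ISG15, fell in H3K4me3 from 264.7 and 278.7 CPM to 195.3 and 176.7 CPM (-0.55 ± 0.10, adjusted p = 1.0e-07), without overlap. Its H3K27ac was 78.8 and 92 CPM in WT and 70.2 and 71.3 CPM in cKO, a difference of -0.27 that did not pass the test (adjusted p = 0.294).

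Among the 17 RING ligases H3K4me3 rose at 10 (among them Marchf9, Rnf130, Rnf141, Rnf167, Rnf185, Rnf20, Rnf214, Rnf220 and Rnf225) and fell at 6 (Marchf3, Marchf5, Rnf149, Rnf180, Rnf24 and Rnft2), with a median log2 change of 0.25. H3K27ac rose at 7 and fell at 5, with a median of 0.37. The backgrounds for a rise and a fall are 41.1% and 31.5% in H3K4me3 and 31.6% and 28.7% in H3K27ac. A difference from them was not tested. Rnf125 alone of the 17 changed in none of the 4 marks.

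Marchf9, a membrane-bound RING ligase, had 126.1 and 143.3 CPM of H3K4me3 in WT and 461.6 and 465.1 CPM in cKO. The change of 1.78 ± 0.10 (3.43-fold) had the lowest adjusted p of the members' rises in that mark (4.4e-75). H3K27ac at Marchf9 rose from 78.1 and 70.7 CPM to 139.3 and 139.9 CPM, by 0.91 ± 0.20 (adjusted p = 2.0e-04). Rnf130, a transmembrane RING ligase, rose in H3K4me3 from 132.6 and 142.5 CPM to 257.7 and 265 CPM (0.93 ± 0.11, adjusted p = 1.5e-16) and in H3K27ac from 65.9 and 69.9 CPM to 189.7 and 205 CPM (1.54 ± 0.19, 2.9-fold, adjusted p = 2.2e-08). In both genes the WT and cKO libraries stood apart in both active marks, and both belong to the top 10% of WT H3K27me3.

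Rnf20, the ligase that ubiquitinates histone H2B, had 184.9 and 201.4 CPM of H3K4me3 in WT and 339.2 and 330.2 CPM in cKO (0.79 ± 0.10, adjusted p = 5.7e-16). Its H3K27ac rose by 0.78 ± 0.17 (adjusted p = 1.3e-04). Relative to its region on chromosome 4 the changes were 0.12 (adjusted p = 0.282) and 0.11 (adjusted p = 0.614). Rnf141 rose in H3K4me3 by 0.70 ± 0.12 (adjusted p = 5.6e-09), and relative to its region by 0.08 (adjusted p = 0.567). Its H3K27ac call was lost without WT replicate 1 (adjusted p = 0.124) or cKO replicate 1 (0.0615).

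Marchf5, a ligase of the mitochondrial outer membrane, had the highest WT level of any member in both active marks. Its H3K27ac was 722.5 and 845.1 CPM in WT and 384.2 and 357.4 CPM in cKO, a fall of 1.08 ± 0.14 (SE) on the log2 scale (adjusted p = 2.8e-08). H3K4me3 fell less, from 725.1 and 730.4 CPM to 564.4 and 554.5 CPM (-0.38 ± 0.07, adjusted p = 1.4e-07). Relative to a regional H2AK119ub1 change of -0.39 the H3K4me3 difference was 0.01 (adjusted p = 0.944) and that of H3K27ac -0.69 (adjusted p = 5.6e-05). The windows of Marchf5 and Rnf185 overlap those of other genes.

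Marchf3 fell in H3K27ac from 198 and 193.1 CPM to 114.3 and 114.5 CPM (-0.77 ± 0.18, adjusted p = 2.8e-04) and in H3K4me3 from 462 and 431.3 CPM to 312.9 and 314.8 CPM (-0.51 ± 0.08, adjusted p = 3.1e-09). Of the other RING calls, the H3K27ac ones of Rnf149, Rnf24 and Rnf214 ended without WT replicate 2 (adjusted p of 0.0706, 0.0502 and 0.11). Rnf180 lost its H3K27ac call without WT replicate 1 (0.0543), WT replicate 2 (0.0709) or cKO replicate 1 (0.0562), and its H3K4me3 call without WT replicate 1 (0.0661), cKO replicate 1 (0.0534) or cKO replicate 2 (0.0954). The H3K4me3 calls of Rnf167 (0.133) and Rnft2 (0.0988) ended without cKO replicate 2, that of Rnft2 also without WT replicate 2 (0.0894). Rnf185 lost its H3K4me3 call without WT replicate 1, WT replicate 2 or cKO replicate 2 (0.0624, 0.0799 and 0.132), and Rnf220 without WT replicate 1, cKO replicate 1 or cKO replicate 2 (0.0844, 0.0823 and 0.0965).

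The Trim genes held both the largest rise and the largest fall of H3K4me3 among the members. H3K4me3 rose at 5 of 10 (Trim2, Trim32, Trim44, Trim46 and Trim65, background 41.1%) and fell at 3 (Trim16, Trim24 and Trim25, background 31.5%). H3K27ac rose at 3 (Trim44, Trim46 and Trim65, background 31.6%) and fell at 3 (Trim16, Trim25 and Trim7, background 28.7%). A difference from these backgrounds was not tested.

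Trim25, the ligase that activates the RNA sensor RIG-I, held 209.6 and 197.9 CPM of H3K4me3 in the WT libraries and 27.5 and 27.7 CPM in the cKO libraries. Its promoter thus went from the 57th percentile of autosomal WT promoters to a level 7.38-fold lower (-2.88 ± 0.16, adjusted p = 1.7e-72). H3K27ac was 184.1 and 222.6 CPM in WT and 36.3 and 28.1 CPM in cKO (-2.66 ± 0.22, 6.32-fold lower, adjusted p = 1.9e-12). The Polycomb marks at Trim25 showed no such gap. H3K27me3 was 87.1 and 72.3 CPM in WT and 72.2 and 82.7 CPM in cKO, a difference of -0.04 ± 0.36, and H2AK119ub1 was 105.9 and 100 CPM in WT and 116 and 84.8 CPM in cKO, a difference of -0.04 ± 0.23, so that the libraries overlapped in both.

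Trim44, a Trim-family protein without a RING domain, showed the opposite in the active marks. Its H3K4me3 was 23.2 and 27.5 CPM in WT and 136.8 and 133 CPM in cKO (2.41 ± 0.18, 5.3-fold, adjusted p = 8.3e-38), and its H3K27ac was 49.6 and 37.6 CPM in WT and 139.3 and 130.2 CPM in cKO (1.63 ± 0.22, adjusted p = 1.2e-07). Most of the rise lay in the 0.4 kb to each side of the start, where mean H3K4me3 was 7.2 CPM in WT and 82.4 CPM in cKO. From 2 to 0.4 kb upstream the means were 7.59 and 32.7 CPM, and from 0.4 to 2 kb downstream 10.6 and 19.7 CPM. Trim44 H3K27me3 was 155.1 and 169.4 CPM in WT and 123.8 and 138.3 CPM in cKO (-0.31 ± 0.28, adjusted p = 0.439).

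Trim65, a ligase of the RNA sensor MDA5, rose in H3K4me3 from 137.9 and 139.1 CPM to 380 and 388.1 CPM (1.47 ± 0.10, 2.77-fold, adjusted p = 2.7e-49) and in H3K27ac from 230 and 184.7 CPM to 484.3 and 470 CPM (1.21 ± 0.15, adjusted p = 2.8e-08). Relative to the H2AK119ub1 change of its region, which was 0.76, the rise was 0.71 in H3K4me3 (adjusted p = 8.9e-13) and 0.45 in H3K27ac (adjusted p = 0.013). Trim24, a nuclear cofactor with a bromodomain, was high in WT (502.8 and 556.5 CPM of H3K4me3) and fell to 432.4 and 411.2 CPM (-0.33 ± 0.08, adjusted p = 3.0e-05). Its H3K4me3 difference relative to the region was -0.04 (adjusted p = 0.674). The H3K27ac calls of Trim16, Trim46 and Trim7 ended without WT replicate 2 (adjusted p of 0.0544, 0.0813 and 0.0871), those of Trim16 and Trim46 also without WT replicate 1 (0.091 and 0.134), Trim16 without cKO replicate 2 (0.0588) and Trim46 without cKO replicate 1 (0.269). Trim5 held the lowest level of any member in all 4 marks in WT (for H3K4me3, 9.67 and 5.35 CPM), and it has near-identical gene copies between which reads can be split, so its values are uncertain.

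**Figure D2:**
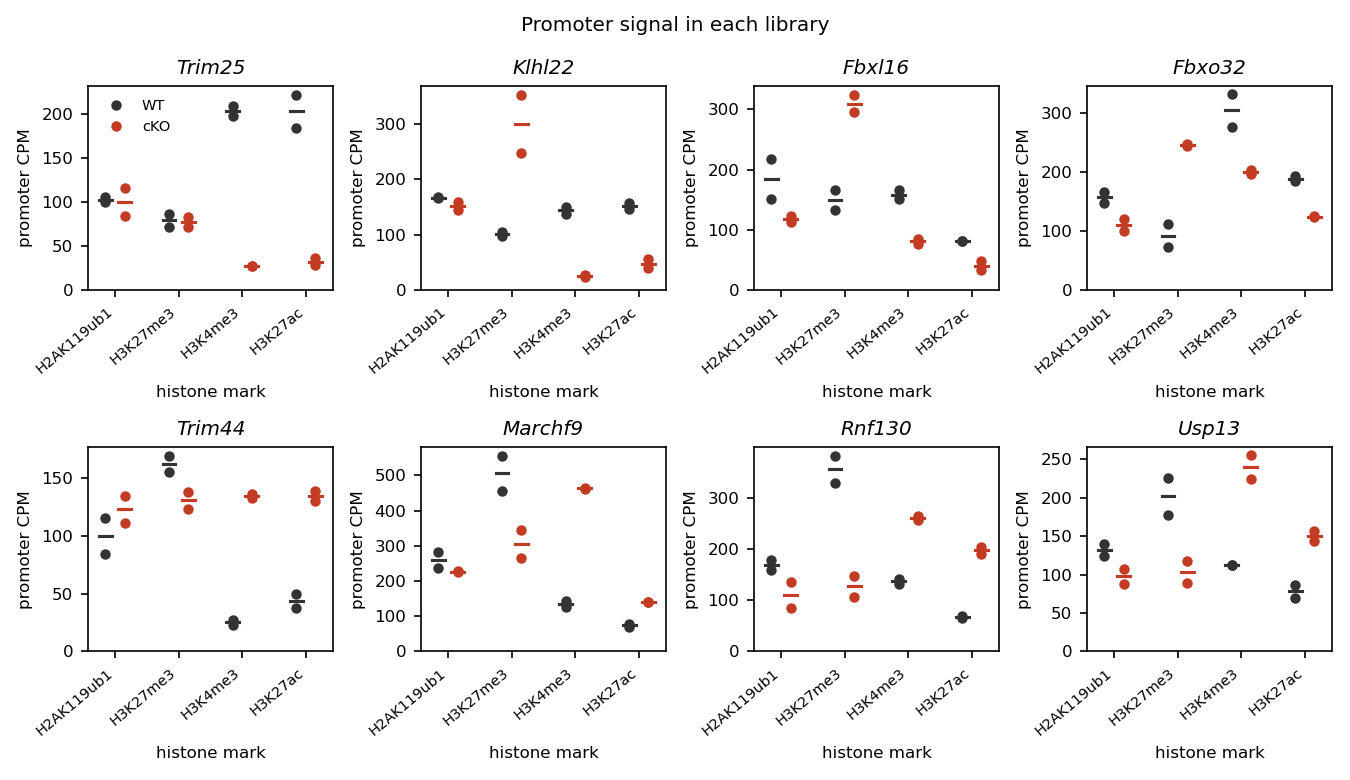
Promoter signal in CPM (vertical axis, from 0) in each of 2 WT (black) and 2 cKO (red) libraries for 4 histone marks (horizontal axis), with the mean of each pair as a bar, at 8 members. The upper row holds members whose active marks were lower in cKO, Trim25 with the lowest cKO H3K4me3 relative to WT, and the lower row members whose active marks were higher.

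The 22 cullin-ligase adaptors changed in both directions. H3K4me3 rose at 8 (Fbxl20, Fbxo10, Fbxo21, Fbxo7, Fbxo9, Klhl11, Klhl36 and Klhl9) and fell at 7 (Fbxl16, Fbxl2, Fbxl8, Fbxo32, Fbxw9, Klhl22 and Klhl26), with a median log2 change of 0.01. H3K27ac rose at 9 (background 31.6%) and fell at 4 (background 28.7%), with a median of -0.01. For H3K4me3 the backgrounds are 41.1% for a rise and 31.5% for a fall, and a difference from these shares was not tested.

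Klhl22, a CUL3 adaptor, had 150 and 137.2 CPM of H3K4me3 in WT and 23.7 and 26.8 CPM in cKO (-2.50 ± 0.18, 5.65-fold lower, adjusted p = 2.8e-42). H3K27ac was 146.8 and 157.4 CPM in WT and 39.2 and 55.6 CPM in cKO (-1.68 ± 0.22, adjusted p = 4.7e-08). In both marks every cKO library was below every WT library. Fbxl16 fell in H3K4me3 from 150.9 and 165.4 CPM to 84.8 and 77 CPM (-0.97 ± 0.14, adjusted p = 2.1e-11) and in H3K27ac from 81.9 and 80.9 CPM to 32.6 and 48.6 CPM (-1.0 ± 0.27, adjusted p = 0.00154).

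Fbxo32, known as atrogin-1 in muscle wasting, fell in H3K4me3 from 332 and 275.8 CPM to 196 and 202.7 CPM (-0.61 ± 0.10, adjusted p = 1.0e-09). H3K27ac at Fbxo32 was 184.1 and 192.4 CPM in WT and 124.8 and 123.2 CPM in cKO (-0.60 ± 0.17, adjusted p = 0.0033), a call that ended without WT replicate 2 (adjusted p = 0.0564) and relative to the region (-0.31, adjusted p = 0.147). Fbxl2, a lipid-anchored F-box protein, fell in H3K27ac from 159.3 and 154.8 CPM to 70.2 and 83.2 CPM (-1.03 ± 0.20, adjusted p = 2.9e-05) and in H3K4me3 by 0.51 ± 0.13 (SE) on the log2 scale (adjusted p = 1.0e-04).

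Fbxl20 had 498.6 and 491.7 CPM of H3K4me3 in WT and 919 and 852.2 CPM in cKO (0.84 ± 0.07, adjusted p = 1.6e-32), and 266.3 and 240.2 against 561.3 and 534 CPM of H3K27ac (1.11 ± 0.14, adjusted p = 3.9e-08). Fbxo10, an adaptor for the survival protein BCL2, rose in H3K4me3 from 112.8 and 121.7 CPM to 217.3 and 226.1 CPM (0.92 ± 0.12, adjusted p = 7.8e-14) and in H3K27ac from 55.7 and 66.8 CPM to 159.3 and 125.6 CPM (1.21 ± 0.21, adjusted p = 7.4e-06). Relative to their regions the H3K4me3 changes were 0.12 for Fbxl20 (adjusted p = 0.127) and 0.05 for Fbxo10 (adjusted p = 0.713), and the H3K27ac changes 0.39 (adjusted p = 0.02) and 0.35 (adjusted p = 0.173). Fbxo9 rose in H3K4me3 by 0.47 ± 0.08 (adjusted p = 2.1e-08) and in H3K27ac by 0.84 ± 0.16 (adjusted p = 4.6e-05). Its H3K4me3 change relative to the region was 0.15 (adjusted p = 0.104).

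Fbxw7, the adaptor that directs cyclin E and MYC to degradation, is named after its values were seen, as a member in the top 10% of WT H3K4me3. It held 505.4 and 526.4 CPM in WT and 576.8 and 511.5 CPM in cKO, overlapping libraries with a difference of 0.08 ± 0.07 (adjusted p = 0.355). The H3K27ac calls of Fbxo21 ended without WT replicate 1, WT replicate 2 or cKO replicate 1 (adjusted p of 0.0504, 0.0653 and 0.0594), that of Fbxo7 without WT replicate 1 (0.0604), and that of Klhl36 without any of the 4 libraries in turn (0.0534 to 0.204). Besides Fbxw7, the members without a call in any mark were Asb13, Asb2, Fbxl22, Fbxw10, Rnf125 and Trim5.

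H3K27me3 and the active marks changed in opposite directions at 11 of the 15 members where H3K27me3 changed. At 5 members it rose while both active marks fell (Fbxl16, Fbxo32, Fbxl2, Klhl22 and Rnf149), and at Ube2l6 it rose while H3K4me3 fell. At 4 members it fell while both active marks rose (Rnf130, Klhl36, Marchf9 and Usp13), and at Usp10 it fell while H3K27ac rose. The exceptions were Fbxo10 and Trim32, where H3K27me3 and at least 1 active mark rose together, and Klhl8 and Usp50, where H3K27me3 alone changed. No member lost H3K27me3 together with an active mark. Over all autosomal promoters where H3K27me3 rose, an active mark fell and none rose at 49.0%, against 6 of 9 members, and an active mark rose at 39.2%, against 2 of 9. Where H3K27me3 fell, an active mark rose and none fell at 71.7% of all promoters, against 5 of 6 members, and an active mark fell at 12.9%, against none of 6. The opposite direction was thus common in the whole file, and with so few members a difference from it was not tested.

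Klhl22 had the lowest p among the rises. Its H3K27me3 was 105.2 and 97.1 CPM in WT and 247 and 351.9 CPM in cKO (1.56 ± 0.28, 2.96-fold, adjusted p = 5.1e-07), and it rose relative to its region too (1.85, adjusted p = 2.4e-09). The gain was steepest in the 0.4 kb to each side of the start, from a mean of 10.9 CPM to 85.5 CPM, where H3K4me3 went from 55.8 to 13.7 CPM. Fbxo32 rose from 72.4 and 111.1 CPM to 247 and 242.7 CPM (1.41 ± 0.28, adjusted p = 8.5e-06) and Fbxl16 from 166.4 and 133.6 CPM to 294.9 and 324.1 CPM (1.05 ± 0.27, adjusted p = 7.9e-04).

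At Fbxo10 H3K27me3 was 31 and 42 CPM in WT and 130.5 and 105.1 CPM in cKO (1.69 ± 0.38, 3.22-fold, adjusted p = 7.8e-05). This promoter started among the lowest 10% in WT, and relative to its region the change was 0.82 (adjusted p = 0.103). With promoters of 1 kb to each side the Fbxo10 change was 1.00 and its call ended (adjusted p = 0.31). Trim32, a ligase whose mutation causes a limb-girdle muscular dystrophy, rose in H3K27me3 by 1.10 ± 0.37 (adjusted p = 0.0141) and in H3K4me3 by 0.73 ± 0.10 (adjusted p = 1.3e-11). Relative to its region these were 0.22 (adjusted p = 0.759) and -0.16 (adjusted p = 0.187).

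Rnf130 had the lowest p among the falls of H3K27me3. It held 382.7 and 329.5 CPM in WT and 107.4 and 147.8 CPM in cKO (-1.48 ± 0.27, 2.79-fold lower, adjusted p = 7.9e-07), with no overlap, and relative to its region fell by 1.34 on the log2 scale (adjusted p = 1.1e-05). In the central 0.4 kb to each side its mean went from 59.2 to 9.19 CPM. Usp13 fell from 177.6 and 226.1 CPM to 117.1 and 89.5 CPM (-0.97 ± 0.28, adjusted p = 0.00321), and Marchf9, with the highest WT H3K27me3 of the members, from 555.1 and 456.9 CPM to 264.6 and 343.7 CPM (-0.73 ± 0.25, adjusted p = 0.017). At Marchf9 the fall lay in the core (164 to 62.9 CPM) and downstream to 2 kb (242 to 73.6 CPM), while upstream from 2 to 0.4 kb the mean was 99.5 CPM in WT and 168 CPM in cKO. Usp10 fell by 0.77 ± 0.28 (SE) on the log2 scale (adjusted p = 0.0233) and Usp50 by 0.97 ± 0.34 (adjusted p = 0.0182).

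Of the 5 members in the top 10% of WT H3K27me3, Klhl36, Marchf9 and Rnf130 fell, and Rnf220 and Uchl1 did not pass the test. The WT libraries enter both the level and the change, so these are not independent. Rnf220 held 520.6 and 414.9 CPM in WT and 500.6 and 506.4 CPM in cKO. Among members marked UP in the file H3K27me3 fell at 5 of 39 (background 22.6%), and among those marked DOWN it rose at 7 of 27 (background 16.9%). The H3K27me3 calls rest on few counts. Without cKO replicate 1 the mark rose at 4 members and fell at 3, and without cKO replicate 2 it fell at 1. Calls that ended without 1 library included Marchf9 (adjusted p of 0.422 without cKO replicate 1 and 0.112 without cKO replicate 2), Usp13 (0.144 without cKO replicate 2), Trim32 (0.127 without cKO replicate 1), Fbxl2 (0.27 without cKO replicate 1) and Rnf149 (0.373 without WT replicate 1). Without cKO replicate 1 those of Klhl36 (0.36), Klhl8 (0.148), Ube2l6 (0.154) and Usp10 (0.0533) ended as well, and without cKO replicate 2 that of Usp50 (0.283). The calls of Klhl22, Fbxo32, Fbxl16, Fbxo10 and Rnf130 held when any 1 library was left out. With the replicate number as a block the calls of Klhl36 (adjusted p = 0.0654) and Klhl8 (0.056) ended. Relative to the region H3K27me3 rose at 8 members (background 9.15%) and fell at 5 (background 12.3%).

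H2AK119ub1, the substrate of BAP1, rose at 18 members and fell at 6. The rises were at 6 deubiquitinases (Otud6b, Usp1, Usp2, Usp36, Usp45 and Usp53), Ube2j1 and Ube2r2, 3 RING ligases (Rnf141 and Rnf20 among them), the Trim ligases Trim32 and Trim65, and the adaptors Fbxl20, Fbxo10, Fbxo9, Klhl11 and Klhl9. The falls were at Otud1, Uchl1, Rnf130, Trim24, Fbxl16 and Fbxo32. At 15 of the 18 members with a rise both active marks rose as well, and at none did an active mark fall. Over all autosomal promoters with an H2AK119ub1 rise these shares were 59.1% and 18.8%. At 4 of the 6 members with a fall an active mark fell too (Fbxl16, Fbxo32, Otud1 and Trim24), and at Rnf130 and Uchl1 an active mark rose, beside 40.1% and 38.0% of all promoters with a fall. Of the 15 members in which the 3 marks rose together, Fbxo9 was the one whose H2AK119ub1 rise also held relative to its region.

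Trim32 had the largest change, from 28.9 and 45.8 CPM in WT to 142.5 and 104.7 CPM in cKO (1.72 ± 0.28, 3.3-fold, adjusted p = 1.6e-07). The median H2AK119ub1 change of the autosomal promoters on chromosome 4, where it lies, was 0.68, and the regional H3K27me3 change was 1.05. Rnf141 rose from 35.6 and 53.2 CPM to 120.3 and 103.7 CPM (1.33 ± 0.28, adjusted p = 5.4e-05), Fbxo9 from 54.4 and 56.2 CPM to 122.9 and 131.4 CPM (1.20 ± 0.26, adjusted p = 7.4e-05), Ube2r2 from 55.8 and 34.5 CPM to 112.2 and 97.4 CPM (1.21 ± 0.28, adjusted p = 3.0e-04) and Fbxl20 from 108.7 and 67 CPM to 192.8 and 153.4 CPM (0.98 ± 0.22, adjusted p = 1.1e-04). All 5 had every cKO library above every WT library, which was a condition for naming them. Many of these promoters were poor in the mark in WT, with Trim32, Otud6b, Rnf20, Usp45, Rnf141, Ube2r2, Ube2j1, Fbxo9 and Usp1 in the lowest 10%.

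Uchl1 fell from 208.3 and 143.8 CPM to 82.8 and 126.8 CPM (-0.74 ± 0.21, adjusted p = 0.00266). It also fell relative to its region (-0.71, adjusted p = 0.0104). Its value moved to -0.45 without WT replicate 1, to -0.47 without cKO replicate 1 and to -1.09 without cKO replicate 2. Trim24 fell from 155.4 and 147.8 CPM to 97.7 and 95.3 CPM (-0.65 ± 0.22, adjusted p = 0.0124) and Fbxl16 from 151.6 and 217.7 CPM to 122.4 and 112.8 CPM (-0.65 ± 0.21, adjusted p = 0.00749), Rnf130 from 178 and 158.6 CPM to 135.2 and 84.8 CPM (-0.62 ± 0.21, adjusted p = 0.0134) and Otud1 from 136.2 and 137.4 CPM to 90.9 and 94.9 CPM (-0.56 ± 0.22, adjusted p = 0.0374). The genotypes did not overlap in these genes, which was a condition for naming them. Fbxo32 also fell (-0.51 ± 0.21, adjusted p = 0.0482). The change of Rnf130 was -0.99 without cKO replicate 1 and -0.32 without cKO replicate 2, and that of Fbxl16 was -0.37 without WT replicate 2, so the order of the falls rests on single libraries. No H2AK119ub1 call of a member held without cKO replicate 1, and 3 rises and no fall held without cKO replicate 2.

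The H2AK119ub1 rises followed chromosomal position. Of the 18, 10 lay on chromosome 4 (of 12 members there), 4 on chromosome 11 (of 11) and 2 on chromosome 9 (of 5). Chromosomes 7 (3 members) and 3 (5 members) held 1 each. At 15 of the 18 the median H2AK119ub1 change of the 20 nearest other genes was at least 0.5. Of all 66 members, with or without a rise, 18 lay in such a region, and the share over all autosomal promoters was not counted. Of the 12 members on chromosome 4, H2AK119ub1 rose at 10 (background for that chromosome 55.6%), H3K27me3 at 2 (21.7%), H3K4me3 at 12 (73.9%) and H3K27ac at 9 (66.7%), and no mark fell at any of them. Their median log2 changes were 1.07, 0.63, 0.80 and 0.94 in that order, beside 0.68, 0.48, 0.77 and 0.84 for all autosomal promoters on chromosome 4.

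When each change was taken relative to its region (to the H3K27me3 change of the 20 nearest genes for H2AK119ub1, and to their H2AK119ub1 change for the other marks), H2AK119ub1 was higher at 3 members (background 6.07%), of which Fbxo9 was also among the 18, and lower at 2 (background 8.12%), of which Uchl1 was also among the 6. Klhl24, Trim7 and Usp13 were called only relative to the region, in which Usp13 was lower. H3K4me3 was higher at 20 (background 31.9%) and lower at 17 (background 25.3%), and H3K27ac higher at 19 (background 22.1%) and lower at 13 (background 24.6%). Of the 35 rises of H3K4me3, 17 held, and all 12 on chromosome 4 were lost. The calls of Trim25, Klhl22, Trim44, Marchf9, Rnf130, Usp13, Fbxl16 and Trim65 in both active marks held. What sets the regional change was not tested.

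**Figure D3:**
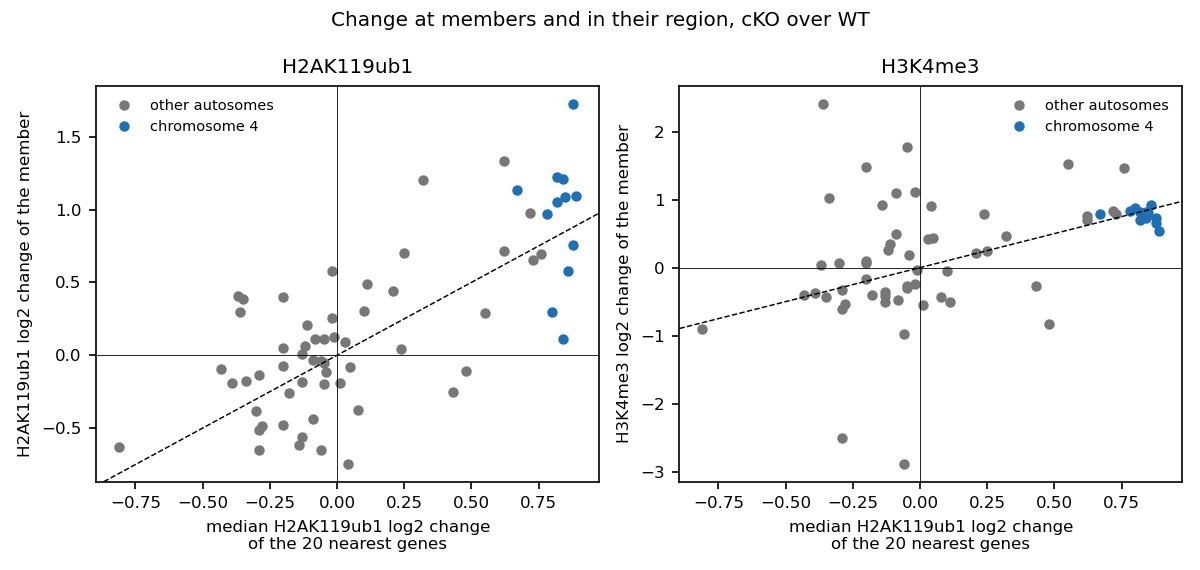
Each point is 1 of the 66 members, with the median H2AK119ub1 log2 change of the 20 nearest other genes on the horizontal axis and the member's own log2 change in H2AK119ub1 (left) or H3K4me3 (right) on the vertical axis, and chromosome 4 in blue. The dashed line marks equal change, the 12 members on chromosome 4 sit at regional changes of 0.67 to 0.89 with H3K4me3 close to the line, and Trim44, Marchf9, Klhl22 and Trim25 lie far from it.

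Every gene in the deposited file carries the mark UP or DOWN. Of the 66 members 39 (59.1%) are marked UP, against 48.5% of all genes in the file, and it is not known whether these libraries entered that choice. Among the 39, H3K4me3 rose at 35 (background 74.6%), H3K27ac at 29 (background 61.4%) and H2AK119ub1 at 18 (background 25.0%). Among the 27 marked DOWN, H3K4me3 fell at 19 (background 58.1%), H3K27ac at 14 (background 52.7%) and H2AK119ub1 at 4 (background 13.3%).

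The gains and losses of H3K4me3 had different shapes along the gene. Over the members marked UP, mean H3K4me3 within 0.4 kb of the start was 5.12 and 5.59 CPM per 50 bp bin in WT and 9.5 and 9.38 in cKO (ratio 1.76), and from 0.4 to 2 kb downstream it was 2.76 and 2.65 in WT and 4.4 and 4.16 in cKO (ratio 1.58). Over the members marked DOWN the core had 6.67 and 7.06 CPM per bin in WT against 6.29 and 6.25 in cKO (ratio 0.914), and the downstream zone 3.9 and 3.76 in WT and 2.17 and 2.22 in cKO (ratio 0.575). From 2 to 5 kb downstream the ratio was 0.448. Upstream the ratio was 0.775 from 2 to 0.4 kb and 0.69 from 5 to 2 kb. The loss was thus largest downstream of the start, smaller upstream and smallest as a ratio in the core. In every zone, upstream and core included, all cKO libraries were below all WT libraries.

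Of the 27 members marked DOWN, 24 had at least 5 CPM of WT H3K4me3 in both zones, and in all 24 the downstream ratio was below the core ratio, with medians of 0.521 and 0.959. Among all autosomal windows marked DOWN this held for 1520 of 1708 (89%), with medians of 0.569 and 0.956. Otud1 went from 109 and 130 CPM in the WT libraries to 162 and 127 CPM in cKO in the core, and from 252 and 304 CPM to 142 and 157 CPM downstream, and Fbxl2 from 77.5 to 80.3 CPM in the core and from 93.8 to 37.9 CPM downstream. With promoters of 1 kb to each side the H3K4me3 call of Otud1 ended (-0.12, adjusted p = 0.212). Trim25 and Klhl22 lost the mark in both zones, from 95.3 to 14.9 CPM in the core at Trim25 and from 98.3 to 7.81 CPM downstream.

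H3K27me3 in the core was higher in cKO over the members marked DOWN and lower over those marked UP. Over the members marked DOWN the core held 0.982 and 0.746 CPM per bin in WT and 1.46 and 1.2 in cKO (ratio 1.54). Over those marked UP it had 1.46 and 1.57 in WT against 1.2 and 1.21 in cKO (ratio 0.794), where the ratios over all autosomal windows were 1.1 and 0.635. Such means weigh most the members rich in the mark, such as Marchf9 and Rnf130 among those marked UP. Gene by gene the zones showed no common order, since the downstream ratio was below the core ratio in 13 of 25 members marked DOWN and 15 of 30 marked UP with signal in both zones. The median core ratio was 1.32 over these 25 and 0.828 over these 30, beside 1.03 and 0.759 over all such autosomal windows. H2AK119ub1 in the members marked UP was higher to both sides of the start. The ratios were 1.28 from 2 to 0.4 kb upstream and from 0.4 to 2 kb downstream, and 1.09 in the core. Over all autosomal windows marked UP they were 1.12 upstream, 1.03 downstream and 0.938 in the core. The median promoter log2 change of the members marked UP was 0.41, and 0.09 without those on chromosome 4.

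**Figure D4:**
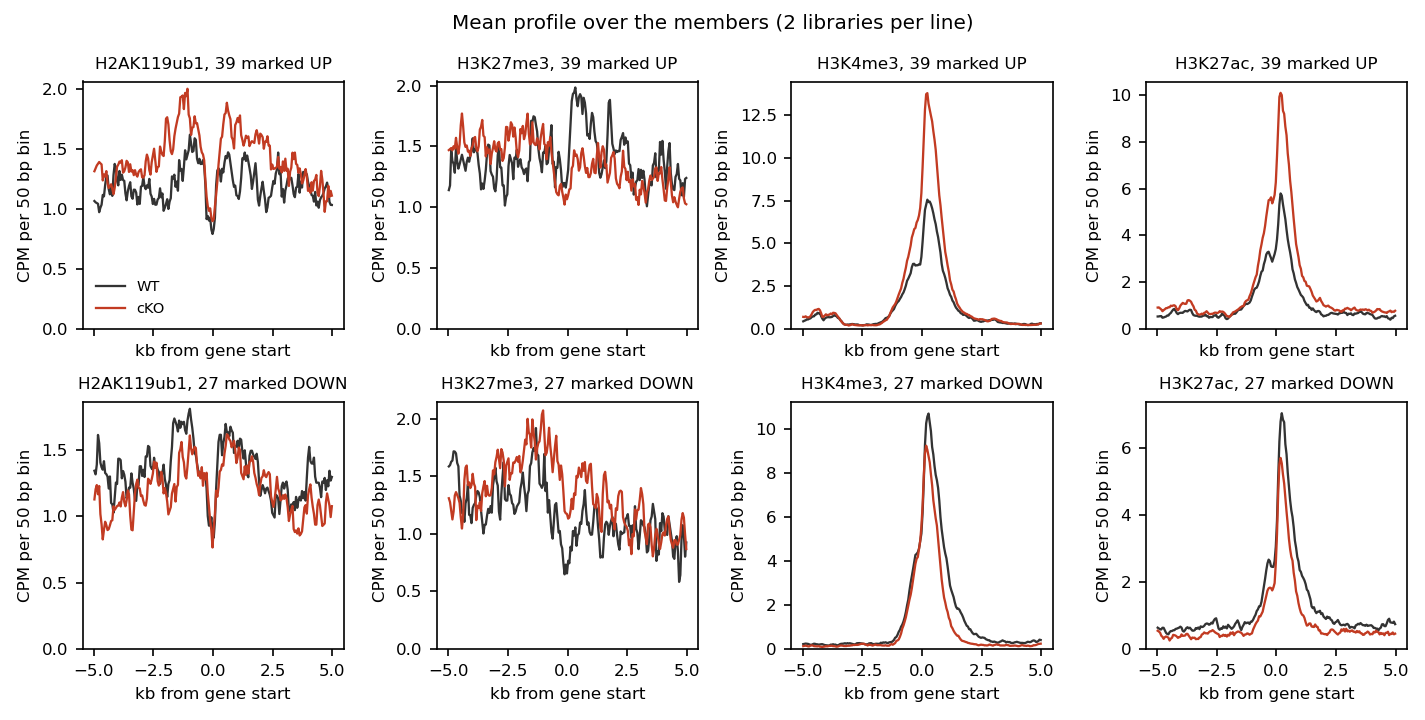
Mean CPM per 50 bp bin (vertical axis, from 0) against distance from the gene start in kb (horizontal axis) for the 39 members marked UP (upper row) and the 27 marked DOWN (lower row), one column per mark, with the mean of 2 WT libraries in black and of 2 cKO libraries in red. In the members marked DOWN the H3K4me3 lines nearly meet at the start and separate downstream of it, and in those marked UP the cKO line is higher at the peak itself.

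RefSeq promoters were found for 51 of the 66 members. They held a median of 16 CpG in the 250 bases before the start, beside 15 over 2522 autosomal promoters of the file. Among them the 23 with both active marks higher in cKO had a median of 23 CpG (2 to 41), the 10 with both lower a median of 19.5 (5 to 47), and the other 18 a median of 10 (0 to 28). Motifs were counted on both strands. CACGTG, the E-box, occurred in 8 (15.7%, beside 8.17% of all promoters), among them Trim25, Klhl22 and Fbxo10, where it began 48, 31 and 15 bases before the start. The NRF1 palindrome occurred in 6 (11.8%, beside 5.71%), among them Klhl22. GGGCGG, the GC box, occurred in 34 (66.7%, beside 61.5%) and CCGGAAGT, an ETS site, in 3 (5.88%, beside 4.24%), Trim44 among them. TGACGTCA occurred in 1 (1.96%, beside 2.02%). TATAAA occurred in none (7.26% of all promoters), and neither did AAGATGGCG (1.03%) or TGTAAACA (0.674%). GGGCGG and the other motifs can overlap one another, and a match describes the letters only.

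Other genes of the ubiquitin pathway, from a list of 187 (activating enzymes, HECT ligases, further adaptors and deubiquitinases, and ubiquitin-like modifiers), numbered 36 in the file. H3K4me3 rose at 20 (background 41.1%) and fell at 11 (31.5%), H3K27ac rose at 19 (31.6%) and fell at 7 (28.7%), H3K27me3 rose at 7 (12.9%) and fell at 2 (13.7%), and H2AK119ub1 rose at 11 (17.3%) and fell at 3 (13.7%). Of the 36, 6 lie on chromosome 4. Relative to the region H3K4me3 was higher at 6 (background 31.9%) and lower at 8 (25.3%), H3K27ac higher at 4 (22.1%) and lower at 8 (24.6%), H3K27me3 higher at 4 (9.15%) and lower at 3 (12.3%), and H2AK119ub1 higher at 1 (6.07%) and lower at 2 (8.12%). The median log2 changes, not relative to the region, were 0.38 for H3K4me3, 0.42 for H3K27ac, 0.22 for H3K27me3 and 0.31 for H2AK119ub1. Socs3, a cytokine-induced cullin adaptor, rose in H3K4me3 from 469.9 and 433.4 CPM to 1009 and 908.5 CPM (1.09 ± 0.07, adjusted p = 3.0e-53). Herc3, a HECT ligase, fell in H3K4me3 from 173.7 and 186 CPM to 82.3 and 90.3 CPM (-1.06 ± 0.14, adjusted p = 2.4e-14) and rose in H3K27me3 by 0.83 ± 0.28 (adjusted p = 0.0158). Cand2, a regulator of cullin assembly, rose in H3K4me3 by 0.56 ± 0.16 (adjusted p = 0.00102) and fell in H3K27me3 by 1.04 ± 0.28 (SE) on the log2 scale (adjusted p = 0.00145). Mysm1, a deubiquitinase of histone H2A, rose in H3K4me3 from 180.9 and 200.3 CPM to 339.8 and 343.9 CPM (0.84 ± 0.10, adjusted p = 6.1e-18), and it lies on chromosome 4. These 4 were named after their values were seen.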

How the data were processed

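Promoter windows of 66 ubiquitin ligase and deubiquitinase genes were analysed in 16 libraries, grouped by their titles. The deposited values are whole-number counts per bin. Around each of 3925 gene starts lie 200 bins of 50 bp (10 kb), 785000 in all, per the file headers. Bowtie2 2.4.5, cutadapt 1.18, SAMtools 1.9, Picard 2.25.5, bedtools 2.30.0 and the build GRCm38 are listed, with no settings, per the submitters' processing notes. Single reads filled runs of 3 bins in 98.32% of isolated runs, so summed bins hold each read about 3 times. Depth counted once was 429493 to 3371063 reads per library, over these windows only, so a shift common to all windows is not detectable, and the number of reads sets the precision.

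Symbols were assigned by position from RefSeq GRCm38.p6, on the same strand within 500 bp of the window centre and otherwise within 1000 bp, which named 3493 windows (89%). When every position was moved 20 kb, 215 windows (5.48%) were still given a name. Rnf185 and Fbxl16 were named beyond 500 bp. Coordinates are 1-based. The counts include 1 member that is not reported here by name.

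Sums over bins 61 to 140 went into the quasi-likelihood test of edgeR 4.0.16 under R 4.3.3, with robust dispersion, on the 4 libraries of a mark. TMM factors came from autosomal windows of 10 kb, filterByExpr had a minimum count of 10, and Benjamini-Hochberg adjustment used a threshold of 0.05. The script was tested on simulated data. Regional values are medians over the 20 nearest other genes.

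The members, gene lists and tests were chosen with earlier results of these data known. Named genes are, for each mark, the 5 members of lowest p in each direction whose genotypes do not overlap, those called in all 4 marks, and the member of lowest p of each role in each mark, 27 in all, and other members named beside a count were chosen after their values were seen. Same-numbered libraries of WT and cKO did not deviate together (r of -0.016, -0.039, 0.069 and 0.051 for H2AK119ub1, H3K27me3, H3K4me3 and H3K27ac), so the replicate number was not used as a pairing. Replicates of a group differed by more than counting noise (chi-square per degree of freedom of 2.01 to 3.62). Alternatives were total counts, TMM factors from promoters, DESeq2 1.42.0, no filter, promoters of 1 kb or 5 kb to each side, 1 bin in 3, a replicate block, each library left out, a regional offset, no shared windows, and all 16 libraries in 1 fit.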

Additional observations from a re-analysis of the deposited data

How the results depend on the processing

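Of 137 calls of a member in a mark, 129 held with DESeq2, 131 with total counts, 132 with TMM factors from promoters, 137 without a filter, 135 with 1 bin in 3, 130 with 5 kb, 110 with all 16 libraries in 1 fit, 101 with 1 kb and 72 with the regional offset. The replicate block kept 135. With it H2AK119ub1 had 18 rises and 6 falls, H3K27me3 had 8 and 5, H3K4me3 had 35 and 19, and H3K27ac had 31 and 14. The libraries share only a number, so no pairing is claimed. With 1 library left out, edgeR pools the spread and the lone library is assumed to vary like the other group. H2AK119ub1 then had 0 to 16 rises and 0 to 3 falls, H3K27me3 had 4 to 12 and 1 to 6, H3K4me3 had 32 to 34 and 17 to 18, H3K27ac had 24 to 29 and 6 to 13, and both active marks together had 22 to 25 and 6 to 11, where 6 falls was the count without WT replicate 2. With 1 kb to each side H2AK119ub1 had 5 rises and 1 fall and H3K27me3 3 rises. With 5 kb H2AK119ub1 had 12 falls and H3K27me3 21 rises. With all libraries in 1 fit H3K27me3 had 19 rises, H3K4me3 8 falls and both active marks 7 falls. With the regional offset H2AK119ub1 had 3 rises and 2 falls, H3K4me3 20 rises, H3K27ac 19 rises and both active marks 14 rises. The offset reversed the sign of Fbxo32 (0.07) and Klhl11 (-0.04) in H2AK119ub1, of Rnf141 (-0.06) and Usp36 (-0.14) in H3K27ac, and in H3K4me3, among others, of Klhl26 (0.03), Klhl9 (-0.34), Marchf5 (0.01), Otud6b (-0.12), Rnf220 (-0.11), Trim32 (-0.16), Ube2j1 (-0.01), Ube2r2 (-0.03), Usp45 (-0.05) and Usp53 (-0.01). The change reversed for Klhl36 in H3K27ac with 5 kb (-0.01) and for Rnf149 in H3K4me3 with 1 kb (0.01). Leaving out libraries and narrowing the promoter remove reads by construction, and for the other settings the cause was not tested. H3K27me3 and H2AK119ub1 had the fewest reads per promoter, which limits what is detectable in them.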
